A study of Mus musculus with 4 samples.

Results

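The genes described here are β-catenin (Ctnnb1), the core of its destruction complex (Apc, Axin1, Axin2, Gsk3b and Csnk1a1) and the Tcf/Lef transcription factors (Tcf7, Tcf7l1, Tcf7l2 and Lef1). They were chosen by name, as the best known members of this step of the Wnt pathway, and all 10 were found by their Ensembl identifiers among 42367 genes listed in the count tables. RNA of flow-sorted mouse hematopoietic stem cells (HSCs) was sequenced from Gfi1b wild-type (WT) and knock-out (KO) mice. By the study's methods, cells were sorted as Lin- cKit+ Sca1+ CD48- CD150+ (called HSCs here). The other population had the added gate CD41low/CD9low, which takes out cells with much of these megakaryocyte surface proteins. The study's results instead name the first population CD41+/CD9+ HSCs, so whether the populations overlap is not settled here. There was 1 library per genotype and population, 4 libraries in all, so a difference between WT and KO within a population has no replicate check.

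All mice were C57Bl6, and the marrow came from tibiae, femora and humeri. KO mice carried Gfi1b fl/fl alleles and a tamoxifen-activated Rosa-Cre transgene, which acts in every tissue and not only in blood cells, and received tamoxifen. For the WT mice the sources differ, since the study's methods give Rosa-Cre Gfi1b wt/fl mice with tamoxifen whereas the series' design text contrasts floxed mice with and without the transgene. Marrow of several mice was pooled before sorting, so each library averages over mice and variation between mice cannot be estimated. The ages of the mice are not given in the sources used here.

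β-catenin is both a partner of cadherins at the cell membrane and the co-activator of Wnt signaling. Without a Wnt signal, Axin and Apc hold it in a complex where casein kinase 1α (Csnk1a1) and Gsk3β (Gsk3b) phosphorylate it for degradation, and with a signal it accumulates and binds Tcf/Lef factors on DNA. This control acts on the protein, so transcript levels do not report how much active β-catenin a cell holds. Axin2 differs from the other members of the complex in being a Tcf/Lef target itself, and is widely used as a transcript readout of the pathway.

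Tcf7l1 and Tcf7l2 are the members whose KO/WT ratios passed the cutoffs used below, and Axin2 is the pathway's readout, so the 250 bases before their RefSeq transcript starts (GRCm38.p6, first listed start) are shown. The windows were searched on both strands for CTTTGA, a core of the Tcf/Lef binding motif, and for AAATC, the core of the motif bound by Gfi1 and Gfi1b. Capitals mark a match. The windows are chr6:72789046-72789295 (minus strand) for Tcf7l1, chr19:55741560-55741809 (plus strand) for Tcf7l2 and chr11:108920099-108920348 (plus strand) for Axin2.
Tcf7l1: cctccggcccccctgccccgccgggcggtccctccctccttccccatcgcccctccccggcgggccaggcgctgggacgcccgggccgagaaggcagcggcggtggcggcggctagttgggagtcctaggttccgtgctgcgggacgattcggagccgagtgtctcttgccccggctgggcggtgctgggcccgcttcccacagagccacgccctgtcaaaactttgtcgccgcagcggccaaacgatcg
Tcf7l2: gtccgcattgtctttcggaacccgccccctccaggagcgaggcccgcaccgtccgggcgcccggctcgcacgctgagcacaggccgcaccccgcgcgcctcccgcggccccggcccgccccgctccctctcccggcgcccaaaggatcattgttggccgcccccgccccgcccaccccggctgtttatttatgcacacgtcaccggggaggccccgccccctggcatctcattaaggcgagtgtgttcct
Axin2: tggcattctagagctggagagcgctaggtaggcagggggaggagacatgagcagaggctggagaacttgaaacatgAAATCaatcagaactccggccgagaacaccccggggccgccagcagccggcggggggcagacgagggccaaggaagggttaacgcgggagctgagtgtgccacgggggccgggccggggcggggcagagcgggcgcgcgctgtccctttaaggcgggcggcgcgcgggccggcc
The Tcf7l1 and Tcf7l2 windows held neither motif, and the Axin2 window held 1 AAATC on the plus strand, 174 bases before the start. Over 32851 such windows of all genes, 13.8% held CTTTGA and 32.7% held AAATC on either strand. RefSeq windows were at hand for 7 of the 10 genes, 13 windows in all. Among the others of these, a start within Lef1 had 2 CTTTGA matches, at 180 and 120 bases, Gsk3b had 1 at 77 bases, and the second Ctnnb1 window had 1 AAATC at 117 bases before the start. No 2 matches overlapped. A match describes letters only and not binding.

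The libraries held 50781007 counts on genes in HSC WT, 41690708 in HSC KO, 12732079 in CD41low/CD9low HSC WT and 19123185 in CD41low/CD9low HSC KO. All 12 HSC markers were detected (over 3 counts) in each library, with summed levels of 3250 to 3800 CPM (a gene's counts scaled to a common library total). The Gfi1b transcript itself had 9256 counts in HSC WT and 49910 in HSC KO, and 611 and 9741 in the CD41low/CD9low libraries, and was thus more abundant under the KO label in both populations. Its KO/WT ratios were 6.66 (95% counting interval 6.51 to 6.81) and 10.6 (9.79 to 11.6). Counts over the whole gene cannot separate the deleted exons from the rest, so they check neither the deletion nor the labels. The study examined the floxed exons separately and reported their expression as absent in HSCs and megakaryocytes after deletion. That check was not repeated here. The labels' sample titles name Gfi1 while their genotype field names Gfi1b, and the genotype field was followed.

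Levels are given first as RPKM (CPM per kilobase of exon), to compare genes of unlike length. The length used was that of all annotated exons of a gene together, which can differ from the transcripts present in these cells. Ctnnb1 was the most abundant of the 10 transcripts in each library. Its level was 119 RPKM in HSC WT, 121 in HSC KO, 119 in CD41low/CD9low WT and 117 in CD41low/CD9low KO. These levels put it at the 98.1 to 98.6 percentile of the genes that passed the filter in their library. Next came the kinase Csnk1a1, with 53.6, 56.2, 39.5 and 39.9 RPKM in the same order of libraries. Axin1, the scaffold whose amount limits the complex, had 31.7, 28.0, 34.3 and 35.4 RPKM. The second kinase, Gsk3b, had 13.6, 17.8, 9.01 and 10.1 RPKM, and Apc, the large scaffold that helps to present β-catenin, had 10.2, 14.8, 7.34 and 7.52 RPKM. The order Ctnnb1, Csnk1a1, Axin1, Gsk3b, Apc was the same in the 4 libraries, with no overlap of neighbouring counting intervals. These intervals do not cover error in exon length, on which the order of the last 3 depends. By counts in HSC WT, Apc (8367) was above Gsk3b (6801) and Axin1 (6155).

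The remaining 5 genes were far lower. Tcf7l2 had 0.927 RPKM in HSC WT, 1.83 in HSC KO, 0.94 in CD41low/CD9low WT and 0.989 in CD41low/CD9low KO. Axin2 had 0.422, 0.353, 0.357 and 0.389 RPKM, from 118, 81, 25 and 41 counts. Tcf7l1 had 0.271, 0.128, 1.06 and 0.36 RPKM, from 54, 21, 53 and 27 counts. With so few counts the order was not settled everywhere. The counting intervals overlapped between Axin2 and Tcf7l1 in HSC WT and in CD41low/CD9low KO, between Tcf7l1 and Tcf7l2 in CD41low/CD9low WT, and between Tcf7l1 and Tcf7 and between Tcf7 and Lef1 in HSC KO.

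Tcf7 (TCF-1) and Lef1, the factors best known from T lymphocytes, were almost absent. Tcf7 had 13 counts in HSC WT and 8 in HSC KO, and Lef1 had 3 and 6. Both genes were listed at 0 in the 2 CD41low/CD9low libraries. A count of 0 allows a level of up to 0.236 CPM in CD41low/CD9low WT and 0.157 CPM in CD41low/CD9low KO (3 counts), while Tcf7 was at 0.256 and 0.192 CPM in the HSC libraries. The absence of Tcf7 from the CD41low/CD9low libraries was therefore close to what their depth could show, and that of Lef1 (0.0591 and 0.144 CPM in the HSC libraries) was not distinguishable at this depth. T cell markers were likewise low, with summed levels of 13.5 to 27.8 CPM and 7 of 10 markers detected in the HSC libraries and 4 of 10 in the CD41low/CD9low libraries. Cd3d, Cd3e, Cd3g, Bcl11b, Cd8a and Zap70 were at 0 in both CD41low/CD9low libraries. Lck, Cd247, Cd4 and Thy1 had 136, 57, 95 and 66 counts in CD41low/CD9low WT and 179, 165, 40 and 60 in KO. The summed T cell level was higher there (27.8 CPM in WT and 23.2 in KO) than in HSC WT and KO (20.2 and 13.5 CPM). The plot of the 10 genes by library shows the gap between the destruction complex and the Tcf/Lef factors.

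**Figure D1:**
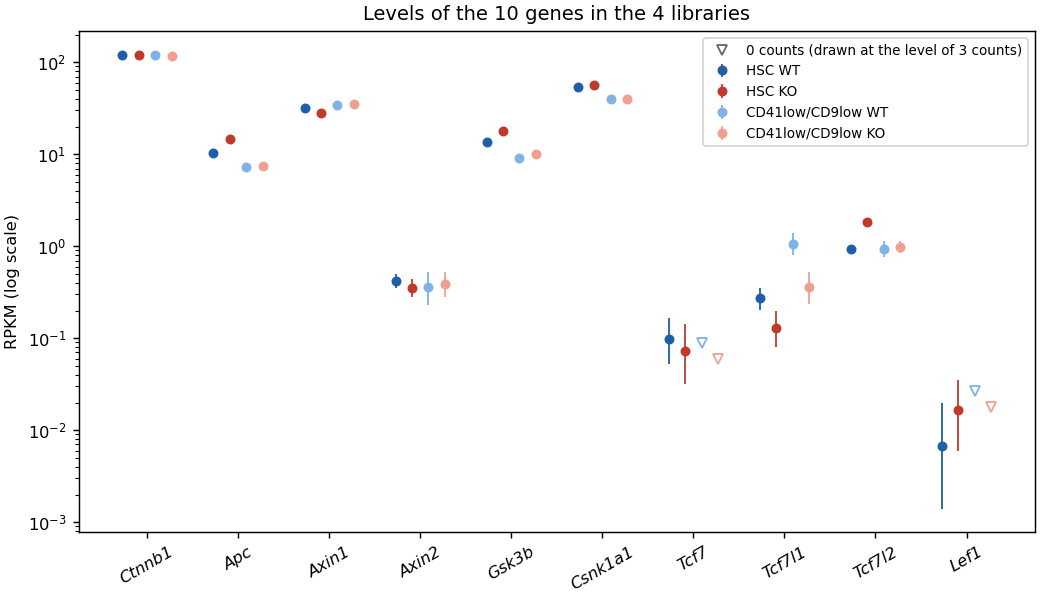
Level (RPKM, log axis) of each of the 10 genes in the 4 libraries, with bars for the 95% counting interval and open triangles for 0 counts, drawn at the level of 3 counts. Ctnnb1 lies at 117 to 121 RPKM in all 4 libraries, while the highest Tcf/Lef value is 1.83 RPKM (Tcf7l2 in HSC KO).

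The first comparison asks whether these transcripts differed between Gfi1b KO and WT HSCs. Of the 10 genes, 9 had at least 10 counts in 1 library of the pair, and 2 of these 9 passed the cutoffs, both of them Tcf/Lef genes. Tcf7l2 had a ratio above 1.5 and Tcf7l1 a ratio below 0.6. Over all 15910 genes that passed the filter, 14.1% had a ratio above 1.5 and 10.3% a ratio below 0.6, so 1 of 9 in each direction is near the background. The median KO/WT ratio of the 9 genes was 1.03, beside 1.0 over all genes. Ratios are of normalized counts, and their exact (Clopper-Pearson) 95% intervals cover counting error only.

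Tcf7l2, which acts both as activator with β-catenin and as repressor without it, had 413 counts in HSC WT and 671 in HSC KO (8.13 and 16.1 CPM). Its KO/WT ratio was 2.01 (1.77 to 2.27). The summed level of endothelial and stromal markers was higher in the same library, at 135 CPM in HSC WT and 197 in HSC KO, with 5 of 5 detected in both. Col1a1 (31.9 and 59.7 CPM), Pecam1 (85.4 and 110), Kdr (16.6 and 26.3) and Cxcl12 (1.1 and 1.42) were higher in KO. Cdh5 was lower (0.315 and 0.264 CPM). The part of these markers in the Tcf7l2 ratio was not tested. Tcf7l1 (TCF-3), mostly a repressor of Wnt targets, had 54 and 21 counts (1.06 and 0.504 CPM), with a ratio of 0.48 (0.275 to 0.808). That interval reaches past the cutoff of 0.6, so counting error alone does not place Tcf7l1 beyond it. Tcf7 had a ratio of 0.76 (0.273 to 1.98), an interval that spans both cutoffs, and Lef1, at 3 and 6 counts, did not pass the filter.

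Within the destruction complex no ratio passed a cutoff in HSCs. Apc had 8367 counts in HSC WT and 9940 in HSC KO (165 and 238 CPM). Its ratio of 1.47 (1.42 to 1.51) lay just under the cutoff. Gsk3b, at 134 and 175 CPM, had a ratio of 1.33 (1.28 to 1.37). These 2 scaffold and kinase genes had the highest ratios of the complex in HSCs, and the others were close to 1. The ratio of Csnk1a1 was 1.06 (1.04 to 1.08), that of Ctnnb1 1.03 (1.01 to 1.05) and that of Axin1 0.897 (0.863 to 0.933). Axin2, the readout gene, had 118 and 81 counts and a ratio of 0.847 (0.63 to 1.13), an interval that includes 1.

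In HSCs the ratios moved with the length of the transcript. The running median ratio of the 500 genes nearest in exon length was 1.24 at the length of Apc (16.12 kb), 1.14 at that of Csnk1a1 (10.5 kb), 1.13 at that of Gsk3b (9.83 kb) and 0.957 at that of Axin1 (3.83 kb). Divided by this median, the ratio of Apc was 1.18, that of Gsk3b 1.17 and that of Csnk1a1 0.935. Tcf7l2 (8.78 kb) stayed past the cutoff at 1.83, and Tcf7l1 (3.92 kb) at 0.5. The HSC KO library also held more reads outside annotated genes, 105.3 per 100 counts on genes against 80.0 in HSC WT. The part of this in the members' ratios was not tested. In the CD41low/CD9low pair the corresponding values were 60.1 and 62.0, and the running median lay between 0.955 and 1.02 at the members' lengths. The plot of ratios against exon length shows the slope in HSCs and its near absence in the other pair.

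**Figure D2:**
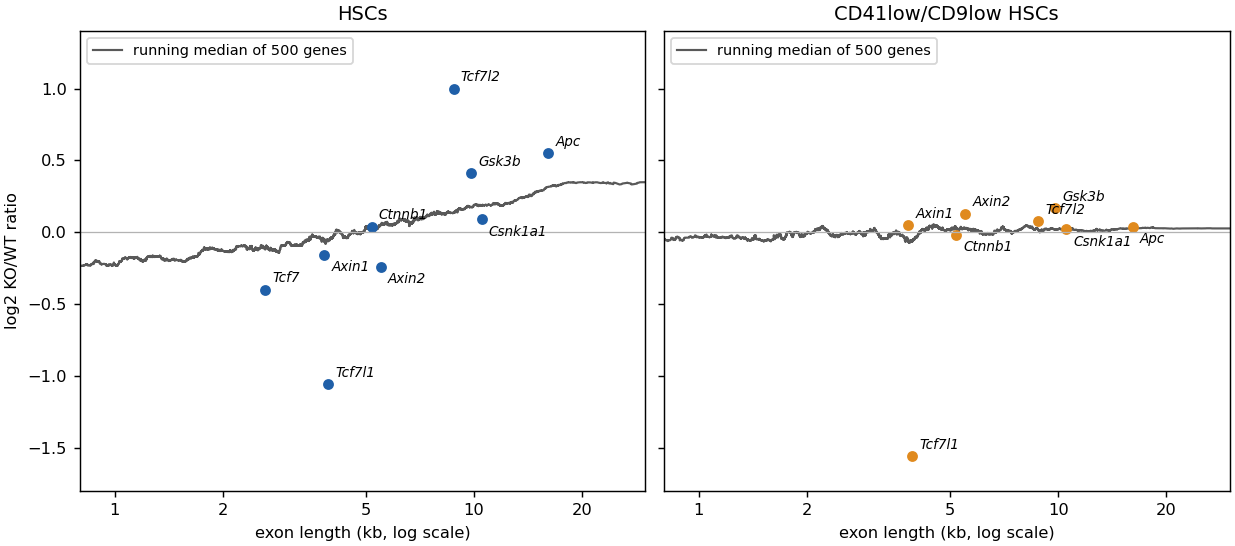
log2 KO/WT ratio against exon length (kb, log axis) in HSCs (left) and CD41low/CD9low HSCs (right), with the running median of 500 genes as a line and the members as labelled points. In HSCs the line passes 1.24 (as a ratio) at the length of Apc, and Tcf7l2 and Tcf7l1 lie far from the line in HSCs while Tcf7l1 does so in CD41low/CD9low HSCs.

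In CD41low/CD9low HSCs the destruction complex had nearly the same level in KO and WT, and Tcf7l1 was again the gene with the lowest ratio. Of the 8 genes that passed the filter, 1 was below 0.6 and 0 were above 1.5, where 12.0% and 13.5% of all 14844 genes were. The median ratio of the 8 genes was 1.03, beside 1.01 over all genes. Tcf7l1 had 53 counts in WT and 27 in KO (4.16 and 1.41 CPM), with a ratio of 0.34 (0.205 to 0.55). Here the whole interval lay below the cutoff. The summed levels of erythroid and of myeloid markers were also lower in this KO library. The summed level of the erythroid markers was 121 CPM in WT and 14.0 in KO, and that of the myeloid markers 502 and 135 CPM (5 and 6 of 6 detected, none at 0). Hbb-bs made up most of the erythroid difference (79.2 and 0.941 CPM), while Epor was higher in KO (3.85 and 10.7 CPM). In HSC WT and KO the sums were 38.0 and 41.7 CPM for the erythroid and 372 and 447 CPM for the myeloid markers, with Hbb-bs higher (2.09 and 15.8 CPM) and Epor lower (21.0 and 13.6 CPM) in KO. The part of these markers in the ratios of Tcf7l1 was not tested.

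Tcf7l2 had 105 counts in CD41low/CD9low WT and 166 in KO (8.25 and 8.68 CPM), with a ratio of 1.05 (0.821 to 1.36). Its counting interval did not overlap that in HSCs, but with 1 library per group the difference between populations cannot be tested. Ctnnb1 had a ratio of 0.987 (0.959 to 1.02), Csnk1a1 1.01 (0.976 to 1.05), Apc 1.03 (0.961 to 1.1) and Axin1 1.03 (0.972 to 1.1). The counting intervals of these 4 genes included 1. Gsk3b had a ratio of 1.12 (1.04 to 1.21). Axin2 had 25 and 41 counts and a ratio of 1.09 (0.649 to 1.88), an interval that includes both 1 and 1.5.

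**Figure D3:**
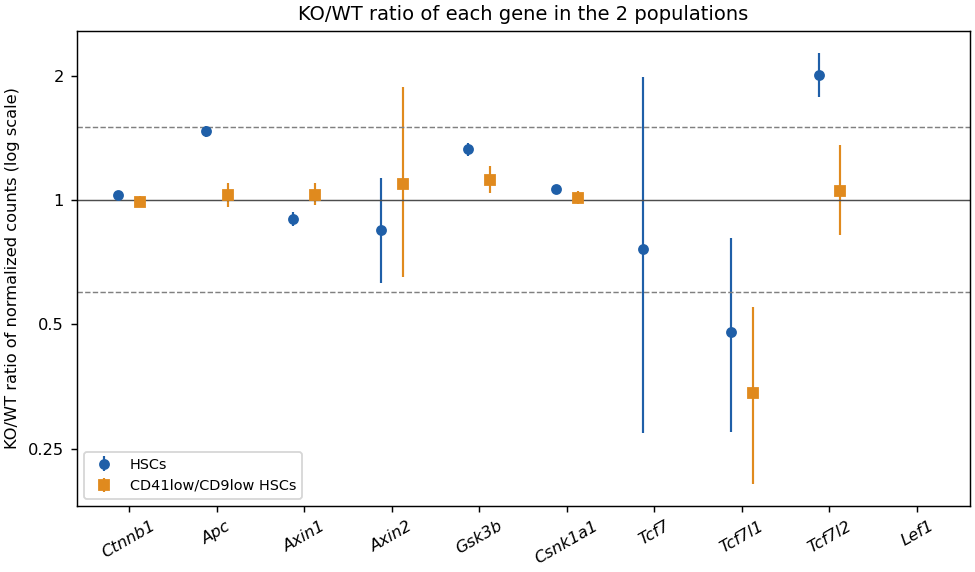
KO/WT ratio of normalized counts (log axis) of each gene in HSCs (circles) and CD41low/CD9low HSCs (squares), with 95% counting intervals and dashed lines at the cutoffs of 1.5 and 0.6. Tcf7l1 lies below the lower line in both populations (0.48 and 0.34) and Tcf7l2 above the upper line in HSCs (2.01) but not in CD41low/CD9low HSCs (1.05). Lef1, and Tcf7 in CD41low/CD9low HSCs, had too few counts for a ratio.

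Together, the Tcf/Lef genes had a summed level of 1.3 RPKM in HSC WT and 2.05 in HSC KO, and 2.0 in CD41low/CD9low WT and 1.35 in CD41low/CD9low KO. Tcf7l2 made up 71.2% of this sum in HSC WT and 89.4% in HSC KO. Tcf7l1 made up 20.8% and 6.26%, Tcf7 7.49% and 3.56%, and Lef1 under 1% in both (0.516% and 0.798%). In CD41low/CD9low HSCs, Tcf7l1 held 53.0% of the sum in WT and 26.7% in KO, with Tcf7l2 as the rest (47.0% and 73.3%). In both populations the share of Tcf7l2 was thus larger in the KO library than in the WT library. The level of Ctnnb1 was 91.5 and 59.0 times the summed Tcf/Lef level in HSC WT and KO, and 59.5 and 86.7 times in the CD41low/CD9low libraries. These shares rest on 483, 706, 158 and 193 counts over the 4 genes, and on the exon length taken for each gene.

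**Figure D4:**
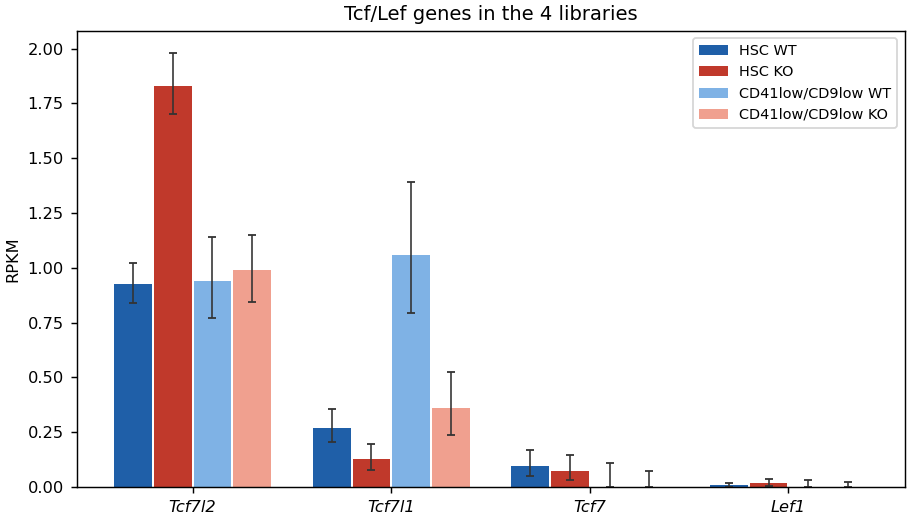
Level (RPKM) of the Tcf/Lef genes in the 4 libraries, with bars for 95% counting intervals. Tcf7l2 stands at 1.83 in HSC KO and at 0.927 to 0.989 in the other 3 libraries, and Tcf7l1 at 1.06 in CD41low/CD9low WT and at or below 0.36 in the others.

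A test of genotype was possible only by treating the populations as repeats of one another. The study's methods describe pooled marrow from which both populations were sorted, so the libraries of a genotype may come from the same mice. They would then not be independent repeats, and the p-values of this fit do not cover variation between mice. The 4 libraries were fitted jointly with terms for genotype and population (edgeR's quasi-likelihood test, 1 residual degree of freedom). After Benjamini-Hochberg adjustment, 93 of 14144 genes (0.658%) passed 0.05, and 0 of the 8 members tested did. DESeq2 called 0 of the 8 as well, and 0 had an unadjusted p under 0.05. The log2 KO/WT difference of Tcf7l1 was -1.31 (SE 1.05, adjusted p = 0.758) and that of Tcf7l2 was 0.55 (SE 0.342, adjusted p = 0.656) in this test. Gsk3b (0.29, SE 0.150, unadjusted p = 0.077) and Apc (0.29, SE 0.158, unadjusted p = 0.0843) came closest to the threshold in edgeR's quasi-likelihood test, with adjusted p of 0.563 and 0.582. Ctnnb1 stood at 0.01 (SE 0.132), Csnk1a1 at 0.05 (SE 0.134), Axin1 at -0.06 (SE 0.149) and Axin2 at -0.07 (SE 0.861) on the log2 scale. For the high genes the SE was 0.132 to 0.158, and for Axin2 and Tcf7l1 a shared difference was hardly known at all. These SEs draw on dispersion estimated across genes and do not measure variation between mice. They do not show that a difference was shared, since Apc stood at log2 0.56 in HSCs alone and 0.04 in CD41low/CD9low HSCs alone.

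Between the populations, 3 of the 8 members tested were lower in CD41low/CD9low HSCs than in HSCs, both kinases of the complex and Apc. In the same fit, 12.8% of all genes were lower and 8.22% higher. Apc (16.12 kb), Csnk1a1 (10.5 kb) and Gsk3b (9.83 kb) also have the longest exons of the 8 members tested. The differences between populations were not corrected for exon length, and the part of length in them was not tested. The log2 difference (CD41low/CD9low over HSC) of Apc was -0.80 (SE 0.159, adjusted p = 0.00317 in edgeR's quasi-likelihood test). Gsk3b stood at -0.78 (SE 0.151, adjusted p = 0.00263) and Csnk1a1 at -0.54 (SE 0.134, adjusted p = 0.0115) in the same edgeR test. Ctnnb1 (-0.10, SE 0.132, adjusted p = 0.663) and Axin1 (0.16, SE 0.149, adjusted p = 0.529) did not pass it, nor did Axin2, Tcf7l2 (-0.51, SE 0.342) and Tcf7l1 (1.66, SE 1.06, adjusted p = 0.307). The population cannot be told apart from the depth of its libraries or from the annotation release on which they were counted, since the HSC libraries and the CD41low/CD9low libraries were counted on different gene lists. Megakaryocyte markers, which the gate removes in part, summed to 912 and 1040 CPM in the HSC libraries and to 275 and 368 CPM in the CD41low/CD9low libraries, with 6 of 6 detected in each and none at 0. Their part in these differences was not tested.

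Within a genotype the same differences can be given as ratios. Apc in CD41low/CD9low HSCs was 0.686 (0.649 to 0.725) times its HSC level in WT and 0.486 (0.465 to 0.509) times in KO. For Gsk3b the ratios were 0.632 (0.593 to 0.674) and 0.543 (0.516 to 0.571), and for Csnk1a1 0.704 (0.683 to 0.725) and 0.679 (0.662 to 0.696). All 3 were below 1 in both genotypes. Tcf7l1 was higher in CD41low/CD9low HSCs in both genotypes, 3.74 (2.51 to 5.57) times in WT and 2.68 (1.46 to 4.99) times in KO. The Tcf7l2 ratio was 0.969 (0.775 to 1.2) in WT and 0.516 (0.433 to 0.613) in KO. The lower value in KO goes with the high Tcf7l2 level of the HSC KO library.

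Of the 24 further genes of the destruction complex and its regulators, all passed the filter. In HSCs 1 had a ratio above 1.5 and 0 below 0.6, with a median of 1.07, where 14.1% and 10.3% of all genes were past these cutoffs. In CD41low/CD9low HSCs 2 were above 1.5 and 0 below, with a median of 1.14, beside 13.5% and 12.0% of all genes. Dvl3, a Dishevelled protein that relays the Wnt signal from the receptor, had 657 and 852 counts in HSC WT and KO, with a ratio of 1.6 (1.44 to 1.77). The Dvl3 ratio in CD41low/CD9low HSCs was 1.21 (1.03 to 1.42). Another Dishevelled gene, Dvl2, had a ratio of 1.64 (1.5 to 1.81) in CD41low/CD9low HSCs and 1.13 (1.06 to 1.19) in HSCs. The casein kinase Csnk1e had a ratio near the cutoff in both populations, 1.49 (1.44 to 1.55) and 1.45 (1.36 to 1.54). Tnks, a tankyrase that marks Axin for degradation, stood at 1.48 (1.43 to 1.53) in HSCs and at 1.22 after correction for its exon length.

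Frat1 and Frat2 bind Gsk3 and hold it away from Axin. Frat1 had 32 and 129 counts in CD41low/CD9low WT and KO, a ratio of 2.69 (1.81 to 4.09), and a ratio of 1.26 (0.93 to 1.71) in HSCs. Frat2 had 3507 and 1926 counts in HSC WT and KO, a ratio of 0.678 (0.641 to 0.717), and 691 and 1367 in the CD41low/CD9low pair, where its ratio was 1.32 (1.2 to 1.45). In edgeR's quasi-likelihood test of genotype 0 of the 24 genes passed. Between populations, Dvl1 and Csnk1g2 were higher and Ppp2r5e, a regulatory subunit of phosphatase 2A, was lower in CD41low/CD9low HSCs in that edgeR fit, in which 8.22% of all genes were higher and 12.8% lower.

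Among 21 nuclear partners of β-catenin and Tcf/Lef, 20 passed the filter in HSCs and 3 had a ratio above 1.5, with a median of 1.19 (1.15 after correction for exon length). A share of 3 in 20 is near the 14.1% of all genes above 1.5. These were the histone acetyltransferases Ep300, at 1.58 (1.53 to 1.63), and Crebbp, at 1.54 (1.5 to 1.59), and the Paf1 complex gene Cdc73, at 1.92 (1.83 to 2.01). After correction for exon length Ep300 stood at 1.32, Crebbp at 1.31 and Cdc73 at 1.52. The kinase Hipk2 had a ratio of 1.44 (1.38 to 1.5). In CD41low/CD9low HSCs the median of the 21 genes was 0.987, with 0 above 1.5 and 1 below 0.6. That gene was Pygo1, which had 22 counts in WT and 0 in KO. The Tcf/Lef-phosphorylating kinase Nlk had a ratio of 1.46 (1.31 to 1.64) there, the co-repressor Tle4 0.785 (0.715 to 0.861) and the chromatin remodeler Smarca4 0.817 (0.783 to 0.852). In HSCs the ratio of Nlk was 1.35 (1.28 to 1.42), that of Tle4 1.2 and that of Smarca4 1.05. In CD41low/CD9low HSCs Ep300 stood at 1.15 (1.09 to 1.22), Crebbp at 1.19 (1.13 to 1.25), Cdc73 at 1.14 (0.985 to 1.32) and Hipk2 at 0.987 (0.91 to 1.07). Of the 20 genes tested for a shared genotype effect, 0 passed in edgeR's quasi-likelihood test. Between populations, Aes, Bcl9l, Ruvbl2 and Tle2 were higher and Cdc73 and Nlk lower in CD41low/CD9low HSCs in that edgeR fit. The log2 differences were 1.19 for Tle2 and -1.79 for Cdc73. Over all genes in the fit, 8.22% were higher and 12.8% lower. Population cannot be told apart from the depth or the annotation release of its libraries.

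Direct Tcf/Lef targets, a list of 14 genes beside Axin2, ranged from 0 to 283 CPM in these cells. In HSCs 8 passed the filter, and in CD41low/CD9low HSCs 6. Sp5 was at 0 in all 4 libraries, and Notum, Nkd2, Ascl2, Dkk1 and Tnfrsf19 had at most 8 counts in any library. Lgr5 had 54 and 58 counts in the HSC libraries and 4 and 0 in the CD41low/CD9low libraries. The median KO/WT ratio of those that passed was 0.893 in HSCs and 0.992 under the added gate. These medians are over different genes, since Nkd1 and Lgr5 passed in HSCs only. In HSCs 1 was above 1.5 (Cd44) and 1 below 0.6 (Nkd1), and in CD41low/CD9low HSCs 2 were above (Apcdd1 and Rnf43) and 1 below (Ccnd1). Over all genes the shares above and below were 14.1% and 10.3% in HSCs, and 13.5% and 12.0% in the other pair, so counts this small cannot be set apart from the background.

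Ccnd1, which encodes cyclin D1, was lower in KO in the shared fit, whose p-values do not cover variation between mice. It had 4181 counts in HSC WT and 2116 in HSC KO (82.3 and 50.8 CPM), and 1190 and 1021 in the CD41low/CD9low libraries (93.5 and 53.4 CPM). Its KO/WT ratios were 0.625 (0.593 to 0.658) and 0.572 (0.526 to 0.622). The log2 difference was -0.75 (SE 0.156, adjusted p = 0.0479 in edgeR's quasi-likelihood test), and 0.205% of all genes were called lower. The adjusted p ranged from 0.000896 to 0.0714 over the alternatives of this fit, and the call was lost with RLE size factors. The part of the erythroid and myeloid markers given above in the Ccnd1 values was not tested. Between populations, 2 of the 6 targets tested passed, Cd44 (-0.63) and Myc (-0.57, log2), both lower in CD41low/CD9low HSCs, as were 12.8% of all genes. Cd44 stood at 160 CPM in HSC WT and 151 in CD41low/CD9low WT, but at 283 and 138 CPM in the KO libraries. Myc was lower in both genotypes (108 and 81.9 CPM in WT, 92.8 and 61.5 in KO). For genotype, Myc, also a growth regulator, had ratios of 0.868 (0.832 to 0.904) and 0.752 (0.691 to 0.818) and did not pass. Cd44, an adhesion receptor, had 8114 and 11783 counts in HSC WT and KO, a ratio of 1.79 (1.74 to 1.84), but 1924 and 2630 in the CD41low/CD9low pair, a ratio of 0.911 (0.859 to 0.967).

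The feedback genes among the targets gave no common direction. Znrf3, a ubiquitin ligase that removes Wnt receptors, had KO/WT ratios of 1.49 (1.38 to 1.61) in HSCs and 1.07 (0.932 to 1.23) under the added gate. Its partner Rnf43 had 47 and 35 counts in HSCs and 2 and 15 in CD41low/CD9low HSCs, where the ratio was 5.0 (1.16 to 45.1). Nkd1, an inhibitor of Dishevelled, had 30 counts in HSC WT and 1 in HSC KO, a ratio of 0.0411 (0.00101 to 0.247), and 0 in both CD41low/CD9low libraries. Apcdd1, an inhibitor at the receptor, had 135 and 79 counts in HSCs and 4 and 23 in CD41low/CD9low HSCs.

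Cadherins and their other catenins share β-catenin with the Wnt pathway. All 6 genes of this list passed the filter in HSCs, with a median ratio of 1.2, and 4 in CD41low/CD9low HSCs, with a median of 0.878. Cdh2 and Cdh5 passed in HSCs only, so these medians are over different genes. Cdh1 (E-cadherin) had 65 and 99 counts in HSC WT and KO, a ratio of 1.88 (1.36 to 2.61), and 14 and 11 counts in the CD41low/CD9low libraries, a ratio of 0.524 (0.215 to 1.24). Jup (γ-catenin) stood at 1.49 (1.36 to 1.64) in HSCs and 1.05 (0.903 to 1.21) with the added gate. Ctnna1 (α-catenin), the link to actin, had ratios of 1.02 and 0.894. Ctnnd1 (p120-catenin) had 9186 and 9273 counts in the HSC libraries but 247 and 319 in the CD41low/CD9low libraries. Its log2 difference between populations was -3.55 (SE 0.183, adjusted p = 2.65e-08 in edgeR's quasi-likelihood test), which cannot be told apart from the annotation release.

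**Figure D5:**
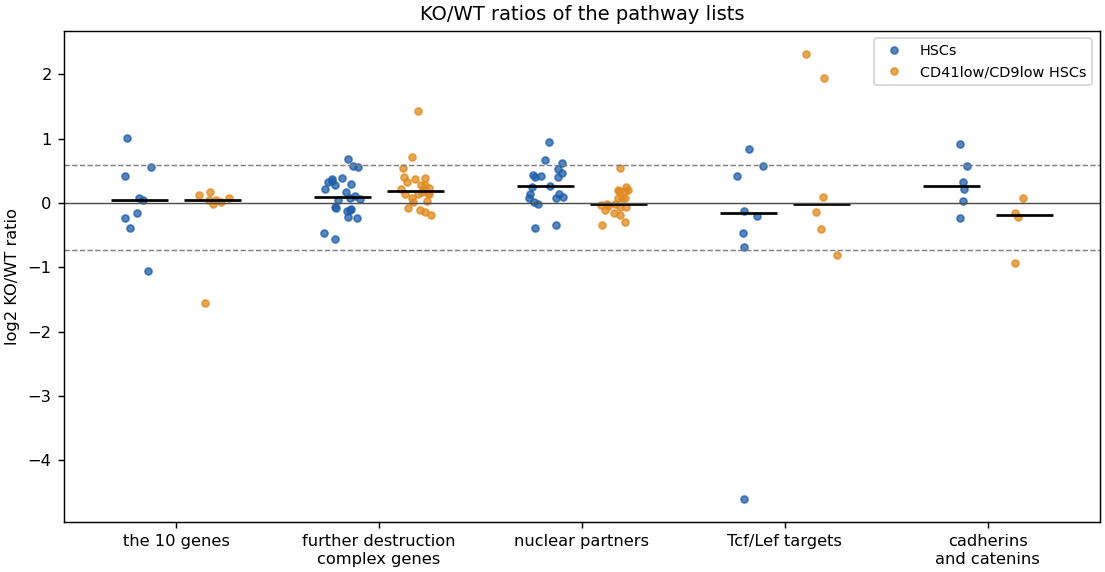
log2 KO/WT ratio of each gene that passed the filter in the 10 genes and 4 further lists, in HSCs and CD41low/CD9low HSCs, with black bars at the medians and dashed lines at the cutoffs. The median ratios lie between 0.878 and 1.2 in all lists (as ratios), and the lowest point is Nkd1 in HSCs. Pygo1 in CD41low/CD9low HSCs, with 0 counts in KO, is not drawn.

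The genes lie on 8 chromosomes of GRCm38 and are all protein coding. Ctnnb1 (ENSMUSG00000006932) spans chr9:120929216-120960507, Axin1 chr17:26138688-26195811, Axin2 chr11:108920349-108950783 and Gsk3b chr16:38089001-38246084. Apc and Csnk1a1 both lie on chromosome 18. The Tcf/Lef genes are Tcf7 at chr11:52252371-52283014, Tcf7l1 at chr6:72626378-72789254, Tcf7l2 at chr19:55741820-55933654 and Lef1 at chr3:131110471-131224356. Counts were taken over exons. Exons of Ctnnb1 share 759 bases with Ulk4 on the other strand, which had 49 to 78 counts per library beside at least 7842 for Ctnnb1. Exons of Axin2 and Tcf7l1 share 209 and 179 bases with the antisense genes Gm11670 and Gm15401, which had at most 1 count. Without the strand setting of the counting, reads in these overlaps cannot be assigned with certainty. Exons of Lef1 share 1208 bases with the antisense gene Gm43352, which was in neither gene list. Apart from these overlapping genes, no gene had at least 200 bases of 95% identity to a member's exons.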

How the data were processed

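Polyadenylated RNA was made into stranded libraries (TruSeq Stranded mRNA). The authors aligned the reads to mm10 with TopHat 2.0.10 and counted them per Ensembl gene with HTSeq, and the counts per gene were deposited without normalization. The HTSeq version, strand setting and annotation release are not given in the sources used here. Of 42367 genes, 37140 were listed for both populations. Reads not assigned to 1 gene were left out.

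The members and gene lists were chosen with earlier results of these data known. Within a population, KO/WT ratios used median-of-ratios size factors (KO over WT 0.81 and 1.5), genes with at least 10 counts in 1 library, and cutoffs of 1.5 and 0.6. The study's results used these cutoffs to pick changed genes that were also bound by Gfi1b and β-catenin, or by LSD1 as well. The shared effects of genotype and population were fitted with edgeR 4.0.16 (TMM, quasi-likelihood test, Benjamini-Hochberg, threshold 0.05) and, as an alternative, DESeq2 1.42.0 in R 4.3.3, after both scripts were tested on simulated data. Named were all members, all Tcf/Lef targets, up to 4 genes per list and population with the largest ratio among those with at least 50 counts, genes called by genotype, and the 3 genes most like Ctnnb1 and Axin2. Pygo1, the genes called between populations in the lists, and Cdh1 in CD41low/CD9low HSCs were named after their values were seen. Exon lengths and positions came from GENCODE M21 (GRCm38) and promoter windows from RefSeq (GRCm38.p6). At the depths of these libraries 3 counts correspond to 0.059, 0.072, 0.236 and 0.157 CPM (HSC WT, HSC KO, CD41low/CD9low WT, CD41low/CD9low KO). PCR duplicates were not marked by molecular identifiers, so intervals cover counting error only. Sorted megakaryocytes were not analysed here.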

Additional observations from a re-analysis of the deposited data

Results flagged for a closer look

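None of the 10 genes had counting intervals on opposite sides of 1 in the 2 populations. Among the related genes named above, 7 did, each with 1 library per group, and the difference between populations was not tested. Listed genes not named above did so too, among them Ppp2ca (0.849 and 1.11) and Gsk3a (0.937 and 1.31). The share of all genes with such intervals was not counted, so the 7 cannot be set against a background. In HSCs the KO/WT ratio of Apcdd1 was 0.722, and in CD41low/CD9low HSCs it was 3.83 (4 and 23 counts). That of Cd44 was 1.79 and 0.911, and that of Frat2 was 0.678 and 1.32. Smarca4 had ratios of 1.05 (0.994 after correction for exon length) and 0.817, and Tle4 of 1.2 and 0.785. Dvl1 had ratios of 0.855 and 1.1, and Csnk1g2 of 0.93 and 1.13. Outside the counts on genes, the HSC KO library held 105.3 reads assigned to no gene per 100 counts on genes, above the 80.0 of HSC WT and the 60.1 to 62.0 of the CD41low/CD9low libraries.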

How the results depend on the processing

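The alternatives were other scalings (TMM, total counts, size factors over 4 libraries, RLE), other filters, a pseudocount of 1, a lower cutoff of 1/1.5, a correction for exon length and DESeq2. The members past the cutoffs numbered 2 in HSCs and 1 in CD41low/CD9low HSCs under each alternative, except that 3 were past in HSCs when 1 count in both libraries sufficed. Under the scalings the ratio of Tcf7l2 in HSCs ranged from 1.98 to 2.01, and that of Tcf7l1 from 0.474 to 0.48 in HSCs and from 0.339 to 0.341 in CD41low/CD9low HSCs. With a minimum of 50 counts, 2223 genes were past the cutoffs in HSCs (3887 with 10) and 1684 in CD41low/CD9low HSCs (3786 with 10). Fewer genes were tested, 13315 (15910 with 10) and 12042 (14844 with 10), and the shares past the cutoffs were smaller as well. In HSCs 10.7% were above and 5.95% below (14.1% and 10.3% with 10). In CD41low/CD9low HSCs 8.15% were above and 5.83% below (13.5% and 12.0% with 10). Genotype calls over the 4 libraries numbered 93, and 142 with total counts and 443 without a filter on low counts; the cause was not tested. The log2 KO/WT difference of Ctnnb1, 0.01, was -0.0008 with total counts. Correction for exon length gave HSC ratios of 1.18 for Apc, 1.17 for Gsk3b, 0.938 for Axin1 and 0.935 for Csnk1a1, which turned the direction of Csnk1a1. Taken alone, HSCs gave log2 values of 0.56 (Apc) and 1.01 (Tcf7l2), and CD41low/CD9low HSCs 0.04 and 0.07. The calls of Apc, Gsk3b and Csnk1a1 between populations held under the 5 alternatives fitted. No paired analysis was possible because the labels carry no replicate numbers and each group is 1 library, and for the same reason no replicate could be left out. Depth limits the values of Axin2, Tcf7, Tcf7l1 and Lef1 most.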

Other observations

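The genes whose levels followed Ctnnb1 most closely over the 4 libraries, among 9666 candidates, were Ifnar2, Champ1 and Erbb3, with root mean square log2 differences of 0.00842, 0.014 and 0.0149 after centring on each gene's mean. Since Ctnnb1 was nearly level in the 4 libraries, 956 genes lay within 0.1 of it. For Axin2 the closest were Ccdc43 (0.00652), Aplf (0.0092) and Fez2 (0.00948), and 569 genes lay within 0.1. With 4 points, 2 of them from each population, such likeness describes these libraries only.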
